A study of Arabidopsis thaliana with 13 samples.

Results

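A group of 34 Arabidopsis genes stood lower at 12 h than at 0 h and then higher at 36 h than at 24 h, among 3689 named genes on a spotted cDNA array. The genes were chosen on those measurements. Each had a mean log2 ratio of -0.4 or less over 4 arrays of 12 h against 0 h, and a log2 ratio of at least 1, which is 2-fold, on both arrays of 36 h against 24 h. A total of 42 genes met the thresholds. The 8 left out by name are the leucine-breakdown genes IVD, MCCA and MCCB, the autophagy genes ATG8E and ATG8F, and SIS, AKINBETA1 and AT4G27450.

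The series asks which Arabidopsis transcripts change over the day and go on changing when the cycle of light and dark is removed. Each of its 13 two-colour arrays set total RNA of Arabidopsis thaliana from a later time against RNA from an earlier one. The 0 h time was the earlier one on 10 arrays, of which 5 held 12 h, 2 held 6 h, 2 held 18 h and 1 held 24 h as the later time. A further 2 arrays set 36 h against 24 h, one of them labelled dark, and the last set 60 h against 48 h. For that last array the plants had first been entrained to days of 12 h light and 12 h darkness and were harvested 24 h and 36 h after their transfer to continuous light. The labels state no ecotype, age, tissue, allele or treatment, and no light condition for any array other than the dark and the 60 h ones. The ratios give no absolute level, so they do not show which tissue was sampled. For the same reason fewer cells of a type and less RNA per cell cannot be told apart.

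Ratios were read as channel 2 over channel 1, given as later over earlier time and centred on each array's median. This direction is likely but not stated. The rise of leucine-breakdown genes on the array labelled dark is part of its basis, so the direction of breakdown genes there is not a separate result. Under the opposite reading all signs below change. Arrays gave values for 12446 to 12795 of 12800 features. Array 1 of 12 h, the one titled as single, had a narrow spread, with an SD of 0.382 in log2 ratio against 0.626 to 0.858 on the other 12 arrays, and the rule did not use it. The labels do not say what single means.

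Transcript levels of many plant genes follow the day through the light itself, the circadian clock and the supply of sugar. Leaves make sugars in the light and live on stored starch in the dark. When sugars run out, the kinase SnRK1 is known to switch on genes that break down amino acids, lipids and proteins, and extended darkness is a common way to bring this about. Among the 34 genes, 6 have a name or a role in the gene tables used here. They are the lysine-breakdown gene LKR/SDH (AT4G33150), the lipase gene SDP1 (AT5G04040), the derlin gene DER2.1 (AT4G21810), the stress-related HVA22C (AT1G69700), and the glucosyltransferase genes UGT87A2 (AT2G30140) and UGT73B1 (AT4G34138). The other 28 carry only a locus identifier there, and no role is given for them.

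The thresholds set the size of the group. Of all named genes, 510 (13.8%) had a mean of -0.4 or less at 12 h and 135 (3.66%) were past 2-fold on both arrays of 36 h. The 42 genes past both make up 31.1% of the raised genes and 8.24% of those lower at 12 h. Genes raised from 24 h to 36 h also included 39 (28.9%) with a mean of 0.4 or more at 12 h, against 471 (12.8%) of all named genes. So rises at 36 h went about as often with a higher as with a lower value at 12 h. Just inside the limit for 12 h stood AT3G51730 at -0.45 and AT1G04140 at -0.46, and just outside it AT5G63620 at -0.37 and AT3G02340 at -0.31. AT1G21400 was nearer, at -0.38, but the rule also bars this gene by name. For the lower of both 36 h arrays, AT5G59080 at 1.01 and SDP1 at 1.02 were just inside, and AT5G53320 at 0.95 and AT5G18630 at 0.95 just outside.

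**Figure D1:**
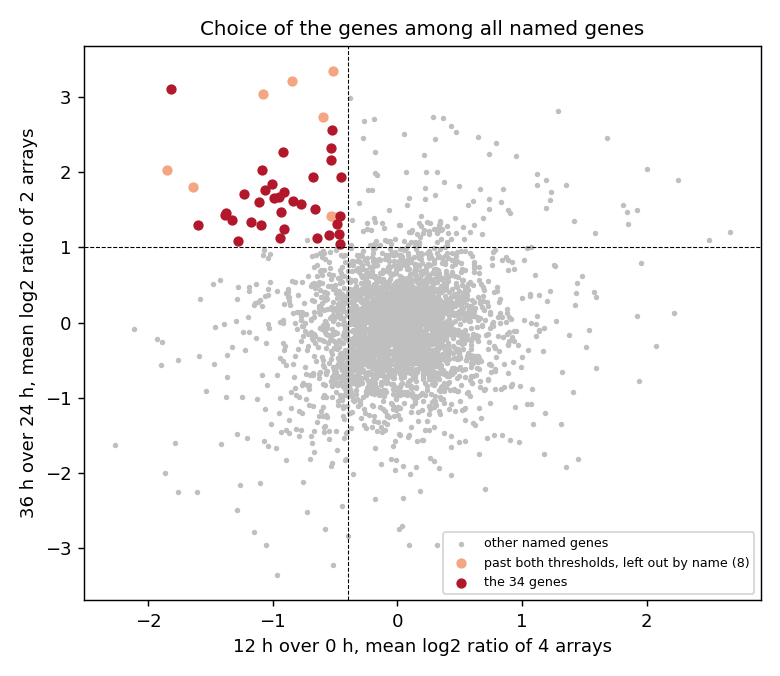
Mean log2 ratio of 12 h over 0 h (4 arrays, horizontal) against the mean log2 ratio of 36 h over 24 h (2 arrays, vertical) for each named gene, with dashed lines at -0.4 and 1. The 34 genes (dark red) and the 8 left out by name (orange) lie in the upper left, and the upper right also holds many genes. The rule asked for 1 or more on each 36 h array, not for the mean. A gene that failed it can thus lie in the upper left, such as AT1G13990 (mean 1.11, lower value 0.94).

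LKR/SDH, the enzyme of the first steps of lysine breakdown, stood at 2.16 on the 36 h array without a stated light condition and at 2.17 on the dark array, which are 4.47-fold and 4.51-fold. On arrays 2, 3, 4 and 5 of 12 h it stood at -0.27, -0.81, 0.04 and -1.07. Its mean at 12 h was -0.53 ± 0.50 (SD, n = 4 arrays), with array 4 just above 0 and the other 3 arrays below it. On arrays the rule did not use, it stood at 0.51 and -0.14 at 6 h, 0.54 and -0.62 at 18 h, 0.43 at 24 h and -0.35 at 60 h. The 2 arrays of 6 h and the 2 of 18 h therefore differed in sign for this gene.

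LKR/SDH is 1 of 18 genes of a list of amino acid breakdown, of which 6 were measured. At 36 h against 24 h, 1 of the other 5 rose in each comparison and 0 fell. This was ALDH6B2, which acts in valine breakdown, at 3.06 ± 0.44 (SE, 1 array, adjusted p = 0.0189) and, in the dark, 2.39 ± 0.44 (adjusted p = 0.0313). Over all targets 0.824% rose at 36 h and 0.925% in the dark. The list was fixed with earlier results of these data known, and these arrays were used in the choice, so the counts only describe it. ETFQO, which passes electrons from such breakdown to the respiratory chain, stood at 1.74 ± 0.47 (adjusted p = 0.106) and 1.78 ± 0.47 (adjusted p = 0.0882) and was not called. At 12 h ALDH6B2 stood at 0.21 ± 0.18 and ETFQO at -0.09 ± 0.20, neither of them called. AT2G26800 of this list fell at 12 h, at -1.13 ± 0.22 (SE, n = 5 arrays, adjusted p = 0.0320), where 2.27% of all targets fell, but stood at -0.19 and -0.46 on the 36 h comparisons. LKR/SDH was the only one of the 6 past both thresholds, which follows from the choice. The leucine-breakdown genes IVD, MCCA and MCCB were also past both, but were left out by name and are not on this list.

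SDP1 encodes the lipase that starts the breakdown of stored oil in seedlings. It stood at 1.02 on the 36 h array without a stated light condition and at 1.34 in the dark. Its values on arrays 2 to 5 of 12 h were -0.38, -0.51, -0.36 and -0.63, a mean of -0.47 ± 0.13 (SD, n = 4 arrays). That is the smallest spread among the 34 genes, and the 4 arrays all lay below 0. The average is over 2 features, neither of which passed both thresholds alone, since one stood at -0.38 at 12 h and the other at 0.93 on the 36 h array. On the remaining arrays it stood at -0.29 and 0.17 at 6 h, -0.75 and -0.03 at 18 h, -0.25 at 24 h and -0.19 at 60 h. None of the 12 listed genes of fatty acid beta-oxidation, the pathway that uses the released fatty acids, was measured (0 of 12).

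DER2.1 encodes a derlin, a protein of the endoplasmic reticulum that helps remove misfolded proteins. It stood at 1.30 and 1.32 on the 36 h arrays, light not stated and dark. On arrays 2 to 5 of 12 h it stood at -0.04, -0.87, -0.11 and -0.92, a mean of -0.49 ± 0.47 (SD, n = 4 arrays), so that 2 of the 4 arrays were close to 0. It was below 0 on both arrays of 6 h (-0.26 and -0.53) and of 18 h (-0.51 and -0.56), and above 0 at 24 h (0.20) and 60 h (0.26). Its relative DER2.2 stood at 0.80 and 0.73 on the 36 h arrays and at -0.16 over the 4 arrays of 12 h. DER2.2 thus had the signs of DER2.1 on these arrays and lay outside both thresholds, while at 60 h it stood at -0.04.

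HVA22C belongs to a family named for a barley gene that abscisic acid and stress induce. It stood at 1.55 on the 36 h array without a stated light condition and at 2.14 in the dark, 2.92-fold and 4.40-fold. Arrays 2 to 5 of 12 h gave -1.22, -0.86, -0.88 and -1.07, a mean of -1.01 ± 0.17 (SD, n = 4 arrays), with every one of the 4 near the mean. HVA22C was above 0 at 6 h (0.46 and 0.36) and at 18 h (0.70 and 0.78). It was the only gene of the 34 apart from AT1G75900 to be above 0 on all 4 of these arrays and below 0 on all 4 chosen arrays of 12 h. The fitted change of HVA22C at 18 h was 0.86 ± 0.34 (SE, n = 2 arrays), which did not pass (adjusted p = 0.781). It stood at -0.36 at 24 h and 0.28 at 60 h.

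UGT87A2 and UGT73B1 encode enzymes that attach glucose to small molecules. UGT87A2 stood at 1.03 and 1.70 on the 36 h arrays and at -1.64, -1.46, -1.44 and -0.76 on arrays 2 to 5 of 12 h, a mean 2.50-fold lower than at 0 h. At 18 h it stood at -2.62 and -0.96, and the fitted change of -1.69 ± 0.59 (SE, n = 2 arrays) did not pass (adjusted p = 0.740). UGT73B1 stood at 1.36 and 1.58 at 36 h and at -0.09, -1.46, -0.67 and -1.51 on arrays 2 to 5 of 12 h, a mean of -0.93 ± 0.68 (SD, n = 4 arrays). It was below 0 at 6 h (-0.52 and -1.09) and 18 h (-1.08 and -1.36), and at 0.82 it was the highest of the 34 genes on the 60 h array.

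The array held 15 genes named as UGT glucosyltransferases. Of the 13 others, 0 were past 2-fold higher on both 36 h arrays, against 3.66% of named genes. UGT84A3, at 1.40 and 0.99, came closest. UGT78D1 (-1.94 and -1.98) and GT72B1 (-1.63 and -1.51) were past 2-fold lower on both, as were 164 of the 3689 named genes. Below 0 on both were 8 of the 13, while 52% and, in the dark, 53.1% of named genes were below 0 on each array alone. At 12 h, UGT88A1 (-0.58) and UGT74D1 (-0.47) of the 13 were at -0.4 or less, against 13.8% of named genes. This family was looked up after the 2 members were seen, so the counts only describe it.

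AT3G15356 had the lowest mean at 12 h and the highest at 36 h. Arrays 2 to 5 of 12 h gave -2.84, -2.51, -0.90 and -1.03, a mean of -1.82 ± 0.9965 (SD, n = 4 arrays), which is 3.53-fold lower. The arrays of 36 h gave 3.15 and, in the dark, 3.06, which are 8.88-fold and 8.32-fold. Arrays 2 and 3 lay well below arrays 4 and 5, and each of these pairs held both channel orders. At 18 h the gene stood at 1.71 and -0.12, at 6 h at 0.14 and -0.29, at 24 h at 0.06 and at 60 h at -0.14.

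AT4G32480 stood at -1.87, -1.17, -1.56 and -1.80 on arrays 2 to 5 of 12 h, a mean of -1.60 ± 0.32 (SD, n = 4 arrays), and at 1.07 and 1.52 at 36 h. It was also low at 6 h (-0.94 and -0.86) and 24 h (-1.21), but not at 18 h (0.26 and -0.09). AT4G36850 had -0.82, -2.0, -0.47 and -2.26 at 12 h and 1.19 and 1.67 at 36 h, and at 6 h it stood at -0.94 and -1.53. AT4G11970 had -1.50, -1.92, -1.30 and -0.78 at 12 h and 1.16 and 1.77 at 36 h. At 18 h AT4G11970 was the lowest of the 34 on array 2, with -2.13 and -2.62 on the 2 arrays.

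AT1G73480 had -3.10, -1.12, -0.90 and -0.01 on arrays 2 to 5 of 12 h and the largest SD of the 34 genes, 1.31. Its 36 h values were 1.07 and 1.10. At 6 h it was the highest of the 34 on both arrays, at 1.64 and 1.12, and array 1 of 18 h had no value for it.

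Other genes with high 36 h values included AT4G01870 (2.44 and 2.68), AT2G32150 (2.35 and 2.30), AT2G30600 (2.21 and 2.33) and AT1G75900 (2.09 and 1.98). Their behaviour at 12 h differed. AT1G75900 was low on arrays 2 to 5, at -0.59, -1.35, -1.05 and -1.37. AT2G30600 stood at -0.45, -1.31, -1.29 and -0.61. AT2G32150 stood at -0.06, -1.24, -0.37 and -0.46, and AT4G01870 at -0.57, 0.11, -0.36 and -1.28, so the low mean of AT4G01870 rests largely on array 5. At 24 h AT2G32150 shared the lowest value of the 34 genes, -1.21, with AT4G32480. These 4 genes were all above 0 on both arrays of 6 h, with 0.64 and 0.84 for AT1G75900, 1.11 and 0.30 for AT2G30600, 1.17 and 0.47 for AT2G32150, and 0.39 and 0.20 for AT4G01870.

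The 15 genes not described singly are AT1G06560, AT1G21920, AT1G26270, AT1G27290, AT2G05540, AT3G07350, AT3G51010, AT3G51730, AT3G61260, AT3G62650, AT4G19160, AT4G35750, AT5G19120, AT5G57655 and AT5G63190. Their means at 12 h ran from -1.23 (AT3G51010) to -0.45 (AT3G51730), and the means of both 36 h arrays from 1.12 (AT5G63190) to 1.93 (AT3G07350). On array 2 and on array 5 of 12 h the 15 were all below 0. On array 3 only AT3G62650, at 0.05, and on array 4 only AT2G05540, at 0.03, were above it.

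**Figure D2:**
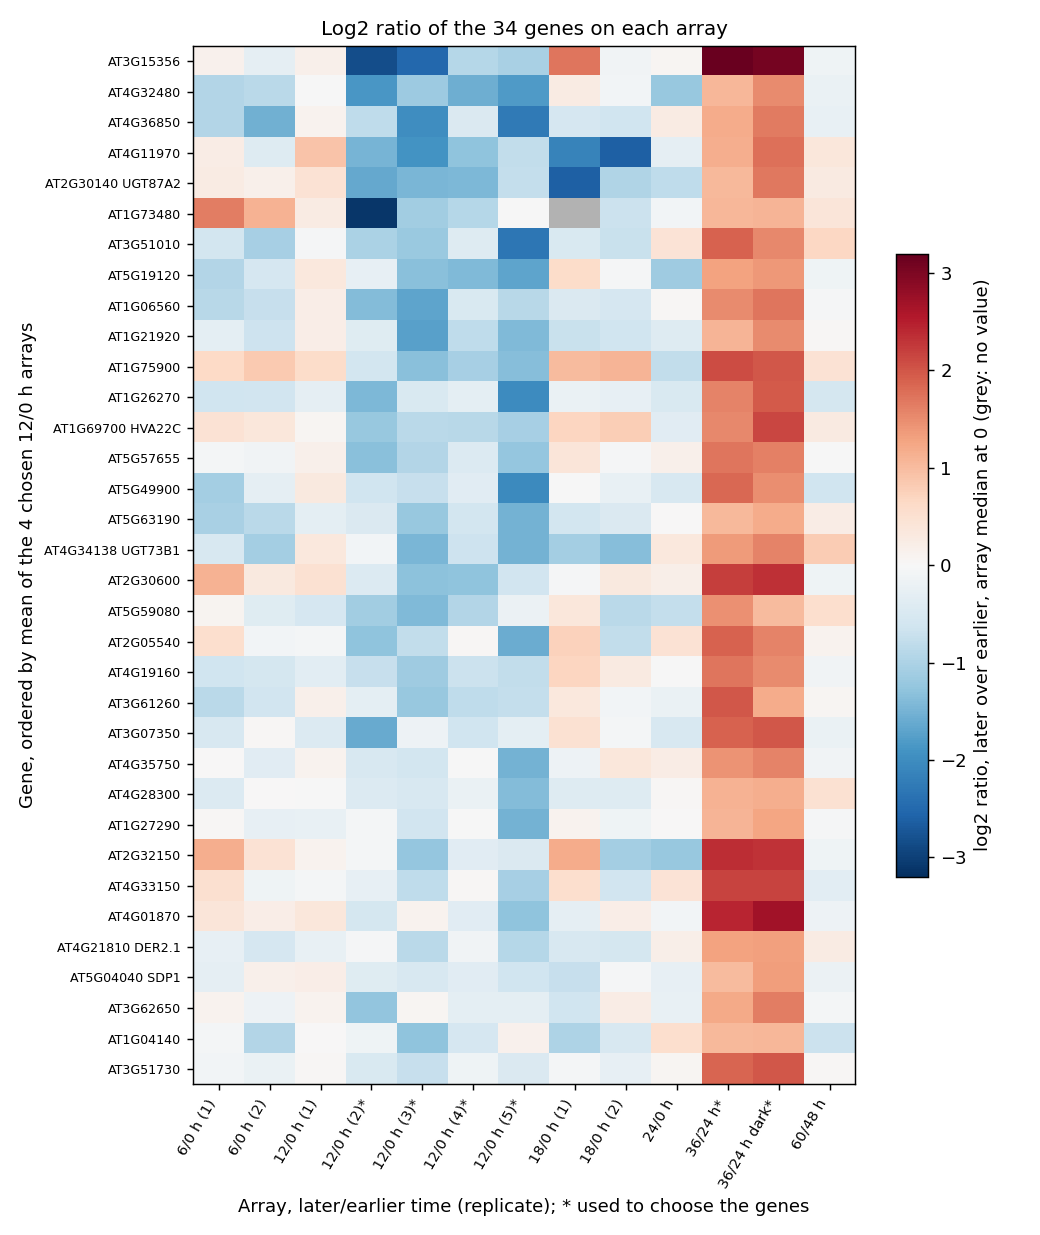
Log2 ratio (colour, later over earlier time) of each of the 34 genes (rows, ordered by the mean of the 4 chosen 12 h arrays) on each of the 13 arrays (columns). The 12 h columns marked with an asterisk are mostly blue and both 36 h columns red because the genes were chosen on them, while the 6, 18, 24 and 60 h columns and array 1 of 12 h hold both colours.

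Over the 4 chosen arrays of 12 h, 29 of the 34 genes were below 0 on all 4 and 5 on 3. Array 2, read with ScanAlyze 2.44, had the 34 genes below 0 with a median of -0.62. Arrays 3, 4 and 5, read with version 2.33, had medians of -1.15, -0.50 and -1.07, with 32, 32 and 33 genes below 0. The 2 arrays with the later time in channel 1, arrays 3 and 5, had the lower medians. The dye term of the model had a median of 0.26 over the 34 genes and 0.04 over all named genes. It is fitted on these same arrays and on array 1, among others, so it gives no separate measure of this difference. The 4 arrays of 12 h in the rule held 2 of each channel order, and the 2 arrays of 36 h held 1 of each.

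On array 1 of 12 h the genes were not low. Their values ran from -0.55 (AT5G59080) to 0.90 (AT4G11970) with a median of 0.11, against 0.02 for all named genes. There were 12 genes below 0 (35.3%, against 47.0% of all named genes) and 0 past 2-fold in either direction. Few genes of any kind moved far on that array, with 0.488% of named genes past 2-fold against 5.67% to 14.3% on the other 4 arrays of 12 h. The 468 other genes that were low on those 4 arrays also had a median above 0 on array 1, at 0.06, with 0.214% of them past 2-fold lower. The only array of this comparison outside the choice thus did not show the fall, for the 34 genes or for these others.

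Both values at 36 h were cut off at 1 by the rule, so the difference between the 2 arrays is a description. The dark value minus the other was above 0 for 24 genes and below 0 for 10, with a median of 0.11. The 2 values differed by 0.19 at the median gene and by 0.81 at most, in AT3G61260, which stood at 1.99 without a stated light condition and 1.18 in the dark. The largest difference the other way was 0.67, in UGT87A2. The dark array held the later time in channel 2 and the other in channel 1, so light and channel order cannot be told apart. Among all named genes, 7.29% were past 2-fold higher on the first array and 5.32% on the dark array.

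Of the tissue markers looked up, 1 of 4 for leaf mesophyll and 1 of 2 for root were measured, and 0 for seed, flower, pollen and guard cells. RCA, the leaf gene for Rubisco activase, fell at 12 h, at -1.11 ± 0.23 (SE, n = 5 arrays, limma adjusted p = 0.0362), and stood at -1.45 ± 0.55 (SE, 1 array, adjusted p = 0.206) and, in the dark, at -1.50 ± 0.55 (adjusted p = 0.191) on the 36 h comparisons. It thus shared the direction of the 34 genes at 12 h and had the opposite sign at 36 h. PYK10, a root gene, stood at -0.06 ± 0.19 at 12 h and at -0.84 ± 0.45 and -1.06 ± 0.45 at 36 h, with no call. Values of RCA and PYK10 are fitted changes with the dye term, not values on the arrays. The part of tissue make-up in the values of the 34 genes was not tested.

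**Figure D3:**
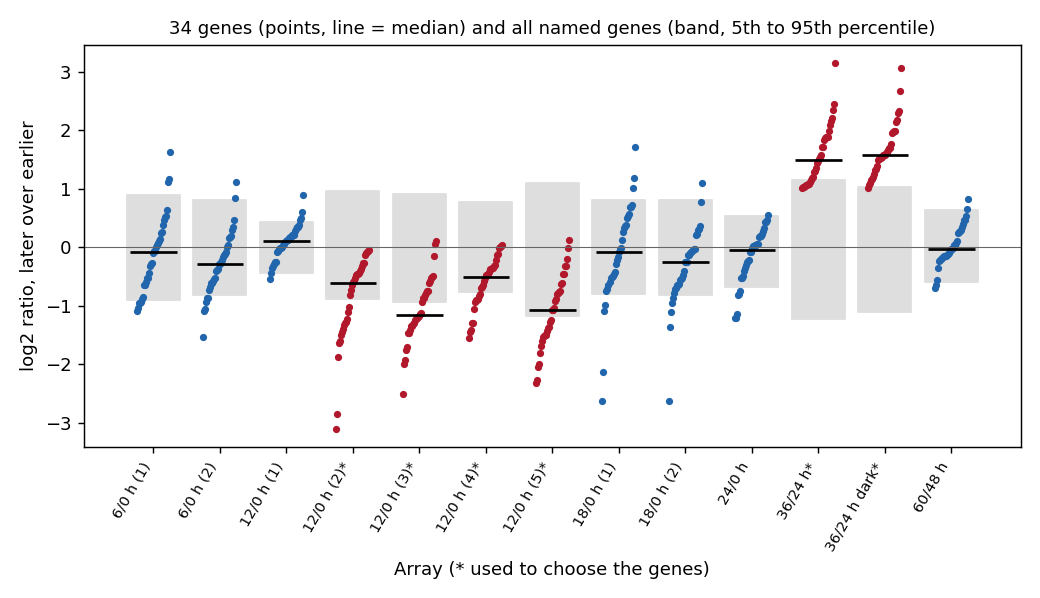
Log2 ratio (vertical) of the 34 genes on each array (points, line at the median), in red on arrays used for the choice and in blue on the others, with the 5th to 95th percentile of all named genes as a grey band. The medians on the blue arrays lie between -0.29 and 0.11, inside the band.

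From 48 h to 60 h in continuous light the genes lay on both sides of 0, with a median close to that of all named genes. The 60 h array shares no RNA of 0 h, 24 h or 36 h per its labels and was not used in the choice. Its values ran from -0.69 (AT1G04140) to 0.82 (UGT73B1) with a median of -0.03, against -0.01 for all named genes. There were 19 genes below 0 and 15 above, and 0 of 34 past 2-fold in either direction, against 2.69% of named genes. At that share few or none of 34 genes would pass, so the 0 says little about them. No gene was called with limma (0 of 34, against 0.585% of all targets), and none had an unadjusted p under 0.05 (0 of 34, against 5.45%), a count that was at most 1 in any other setting run.

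Precision at 60 h is limited, because the comparison has 1 array. The fitted change had a median of -0.23, with standard errors from 0.32 to 1.02, and the 95% interval lay wholly below a 2-fold rise for 18 of the 34 genes and wholly above a 2-fold fall for 9. The lowest unadjusted p was that of AT4G36850, at -0.93 ± 0.46 (SE, adjusted p = 0.999). LKR/SDH followed the same sign at -0.74 ± 0.43, with an interval from -1.70 to 0.23, as did AT1G04140 at -0.95 ± 0.51 and AT5G49900 at -0.94 ± 0.65. Of the genes with a fitted value above 0, AT5G59080 at 0.48 ± 0.55, AT4G28300 at 0.29 ± 0.45, UGT73B1 at 0.26 ± 0.43 and AT1G73480 at 0.57 ± 1.02 had the smallest p, all at adjusted p = 0.999. The dye term, which also draws on the arrays of the choice, moved LKR/SDH from -0.35 on the array to -0.74 and UGT73B1 from 0.82 to 0.26. Without the dye term the median over the genes was -0.03 at 60 h.

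AT1G04140 and AT5G49900 were among the lowest at 60 h on the array itself, at -0.69 and -0.65, after 36 h values of 1.03 and 1.06 and of 1.84 and 1.5. At 12 h AT1G04140 stood at -0.14, -1.30, -0.53 and 0.13, and AT5G49900 at -0.64, -0.74, -0.38 and -2.04. AT4G28300 averages 3 features and stood at 0.48 at 60 h, 1.11 and 1.15 at 36 h, and -0.45, -0.52, -0.22 and -1.38 at 12 h. AT5G59080 stood at 0.53 at 60 h, 1.47 and 1.01 at 36 h, and -1.10, -1.41, -0.94 and -0.20 at 12 h.

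**Figure D4:**
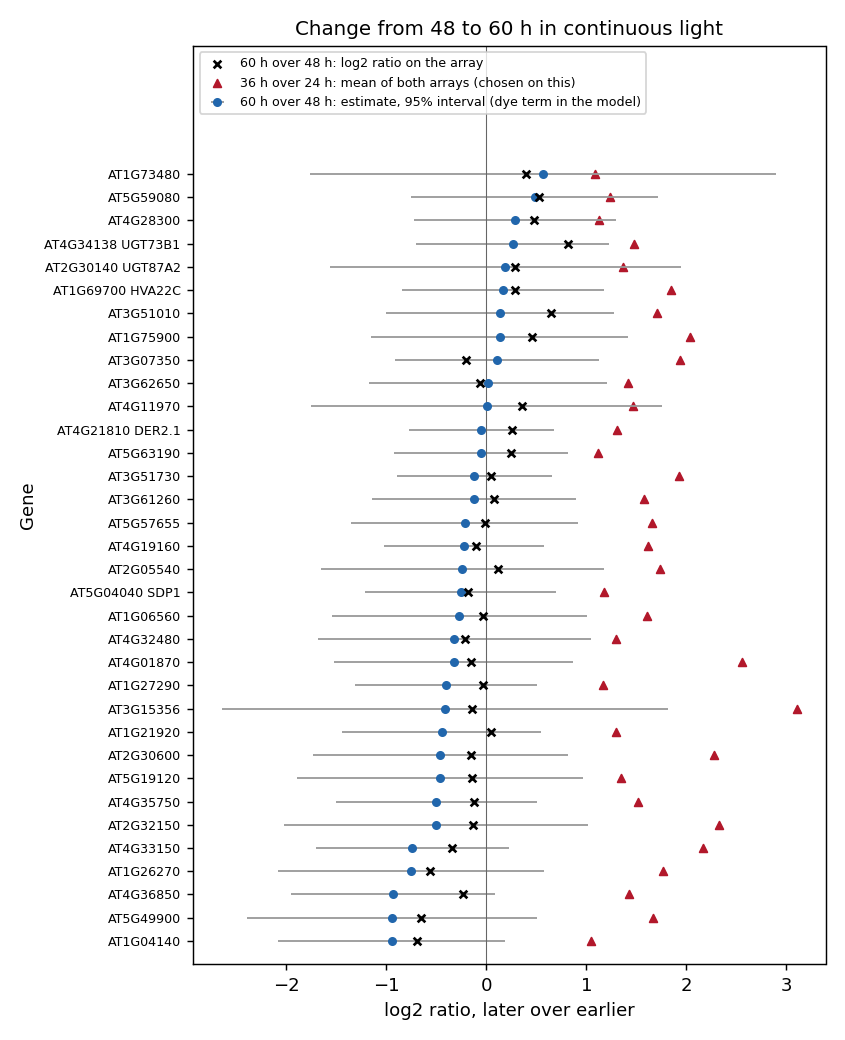
Fitted log2 change from 48 h to 60 h of each of the 34 genes (blue, with its 95% interval), the log2 ratio on the 60 h array (crosses) and the mean log2 ratio of both 36 h arrays (red triangles, on which the genes were chosen). The crosses lie between -0.69 and 0.82 and every triangle lies to the right of its cross.

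The comparisons at 6, 18 and 24 h share the 0 h time with the 12 h comparison. A high or low value at 0 h would enter all of them, and each is given by its own values. A high level at 0 h would lower the 12 h ratios of the rule, and with them those at 6 h and 18 h. Low values there can thus be partly set by the choice, and the counts at 6 h and 18 h only describe the genes. The 24 h array also shares the 24 h time with both 36 h arrays of the rule. A low level at 24 h would raise the 36 h ratios and lower the ratio of 24 h to 0 h. Low values at 24 h can thus be partly set by the choice. At 6 h, 16 of the 34 genes (47.1%) were below 0 on both arrays and 7 (20.6%) above 0 on both, against 32.3% and 28.8% of all named genes. AT4G36850 had the smallest p, at -1.23 ± 0.30 (SE, n = 2 arrays), which is a level at 6 h of 0.425 of that at 0 h, and did not pass (adjusted p = 0.0951). AT5G63190 followed at -0.95 ± 0.26 (adjusted p = 0.121), with values of -1.03 and -0.87 on the 2 arrays, and UGT73B1 at -0.81 ± 0.28 (adjusted p = 0.216). The genes above 0 on both arrays were HVA22C, AT1G73480, AT1G75900, UGT87A2, AT2G30600, AT2G32150 and AT4G01870. In limma 0 of 34 genes were called at 6 h (0.00886% of all targets were), and 7 had an unadjusted p under 0.05, all with lower values (20.6%, against 15% of all targets). This count fell to 1 when array 1 of 6 h was dropped, rose to 11 when array 1 of 12 h was dropped, and was 4 with a separate dye term for ScanAlyze 2.33. The median change was -0.16, against -0.02 for named genes. Without array 1 of 12 h, AT4G36850 passed (adjusted p = 0.0457).

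At 18 h the fitted changes were above 0 for 17 of the 34 genes and below 0 for 17. On the arrays themselves, of the 33 with values on both arrays, 15 (45.5%) were below 0 on both and 3 (9.09%) above 0 on both, against 26.5% and 23.4% of all named genes. The 3 were HVA22C, AT1G75900 and AT4G19160. As the 0 h time is shared with the choice, the counts at 18 h are descriptions. AT1G75900 stood at 1.01 and 1.09, a fitted change of 1.38 ± 0.43 (SE, n = 2 arrays, adjusted p = 0.665). AT4G11970 had the lowest fitted change, at -2.03 ± 0.59 (adjusted p = 0.591). No gene was called (0 of 34, and 0% of all targets), and 5 had an unadjusted p under 0.05, 3 higher and 2 lower (14.7%, against 5.99% of all targets). Leaving out array 1 of 18 h lowered this count from 5 to 2, and leaving out array 5 of 12 h lowered it to 3. Both arrays held 18 h in channel 1, and the median of the 34 genes was 0.06 with the dye term and -0.15 without it, so its sign rests on that term.

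At 24 h the array had values from -1.21 (AT2G32150 and AT4G32480) to 0.55 (AT1G04140) with a median of -0.05, against 0.04 for named genes. The genes past 2-fold lower were these 2 and AT5G19120 (-1.14), or 3 of 34 against 2.14% of named genes. On the array itself 18 of the 34 genes were below 0 (52.9%, against 46% of named genes). The fitted changes, with the dye term, had a median of -0.23, and 30 of the 34 were below 0 (88.2%, against 50.9% of named genes). Because the 24 h time is shared with the choice, these counts only describe the genes. No gene was called (0 of 34, against 0.0177% of all targets). An unadjusted p under 0.05 was found for 2 genes (5.88%, against 3.22%), AT2G32150 at -1.57 ± 0.68 (SE, 1 array) and AT5G19120 at -1.45 ± 0.64, both at adjusted p = 0.9998. This count fell to 0 when array 3 of 12 h was dropped, and to 1 when any single one of arrays 2 and 5 of 12 h and both 18 h arrays was dropped.

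Set beside the 93 other genes raised on both 36 h arrays, the 34 genes had lower medians at 6 h, where the 93 had 0.70 and 0.47 on the 2 arrays and the 34 had -0.08 and -0.29. The 34 genes had been required to be low at 12 h against the same 0 h time, which was not required of the 93, so this is a description. The 468 other genes that were low at 12 h had medians at 6 h of -0.45 and -0.55. On the 60 h array, the medians were -0.03 for the 34 genes, -0.08 for the 92 others raised at 36 h with a value there, and 0.09 for the 465 others low at 12 h. Past 2-fold higher on that array were 0 of the 34 genes, 0 of the 92 and 14 of the 465 (3.01%), against 1.71% of all named genes.

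Some genes were spotted more than once, and since the rule used the average of their features, the counts below only describe them. Of the 34 genes, 21 had 1 feature and 13 had several, with 32 features among them. Of these features 22 passed both thresholds alone. In 5 of the 13 genes each feature did so, and in SDP1 none did. AT3G51730, with 4 features, ranged from -0.59 to -0.36 at 12 h and from 0.79 to 2.83 on the 36 h array without a stated light condition, so its size at 36 h depended on the feature. AT4G01870 had 2 features that gave -0.50 and -0.55 at 12 h and 2.56 and 2.33 on that array.

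Apart from amino acid breakdown, the lists held few measured genes, 10 in 6 lists, and none of them is among the 34. For sugar starvation and dark response 2 of 19 were measured, and 0 were called in any comparison. AT3G15450 of that list stood at -0.91 ± 0.24 at 12 h (SE, n = 5 arrays, adjusted p = 0.0708) and at 0.62 and 0.22 at 36 h, and BZIP53 at -0.06 at 12 h and 1.23 and 0.06 at 36 h. Values of AT3G15450 and BZIP53 are fitted changes with the dye term. For SnRK1 and TOR 2 of 7 were measured, for protein breakdown 2 of 11, and for senescence and stress regulators 1 of 7, with 0 called in any comparison. Of starch breakdown 1 of 13 and of cold and dehydration 2 of 7 were measured, with 1 of each called higher at 12 h, where 1.84% of all targets rose, and 0 called elsewhere. None of the 12 clock genes was measured (0 of 12).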

How the data were processed

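The deposited file holds the log2 ratio of both channels for each feature of 13 arrays. Scanning used ScanAlyze 2.33, 2.42 or 2.44, per the labels. The sources used here do not give the authors' background correction or normalisation. This log2 scale was settled from the values: a ratio of 2 or its inverse occurs 200 times at its log2, against a mean of 36.8 at neighbouring steps. Features with 1 gene in the platform annotation (5197 of 12800, of which 5190 matched the TAIR10.1 gene table) were averaged per gene. The 214 features with several genes and the 7389 not listed there were kept as targets of their own. No positions or sequences are given.

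Each pair of times had its coefficient in a linear model with a dye term, fitted to 11290 of 11292 targets, those with values on at least 10 arrays, with limma 3.58.1 in R 4.3.3. A Benjamini-Hochberg adjusted p under 0.05 over all targets is called, all tests being two-sided. All arrays share 1 spread per target, so a comparison with 1 array is tested as if that array varied like the others. That spread, and the dye term, also draw on arrays used for the choice. Errors are SE of a coefficient unless SD is named. Only 3 titles carry the word biological, and no label says that replicate arrays hold separate plants, so p-values cover array-to-array spread, which may be technical. The script was tested on simulated data.

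The members and lists were chosen with earlier results of these data known. Values are given singly for genes with a name or list, the 6 lowest at 12 h, the 6 highest at 36 h, and the 4 smallest p each way at 60 h (19 genes), and the other 15 by range.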

Additional observations from a re-analysis of the deposited data

Results flagged for a closer look

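Of the 34 genes tested over the 5 arrays of 12 h, 1 had an array far from the others. HVA22C stood at 0.057 on array 1, while the other 4 arrays lay between -1.22 and -0.86. The rule required a low mean over those 4 arrays and did not use array 1, so a gap of this kind is partly set by the choice and its chance rate is not known. Array 1 was not low for the group either, with a median of 0.11 over the 34 genes and 22 of them above 0. The same array had the smallest spread of all 13, with an SD of 0.382. Its part in the HVA22C value was not tested.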

How the results depend on the processing

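The count of called members stayed at 0 at 18, 24 and 60 h under every alternative run: no dye term, arrays scaled to 1 spread, no centring, features not averaged, values on all 13 arrays, no filter, a separate dye term for ScanAlyze 2.33, and leaving out each array of 6, 12 and 18 h. At 6 h it ran from 0 to 1, with 1 only without array 1 of 12 h. The count with an unadjusted p under 0.05 ran from 1 to 11 at 6 h, from 2 to 5 at 18 h, from 0 to 3 at 24 h and from 0 to 1 at 60 h. Uncalled genes changed sign under an alternative in 15 cases at 6 h, 33 at 18 h, 35 at 24 h and 31 at 60 h. A case is 1 gene under 1 alternative. Sign and call stayed the same in 527 cases at 6 h, 509 at 18 h, 508 at 24 h and 512 at 60 h. With arrays left out, the members' fitted median ran from -0.39 to -0.0021 at 6 h and from -0.0766 to 0.18 at 18 h. It ran from -0.34 to -0.14 at 24 h and from -0.31 to -0.12 at 60 h. Without the dye term the 18 h median was -0.15; the cause was not tested. The rule gave 29 to 37 genes when 1 of its 4 arrays was left out, 29 with the 5 arrays of 12 h, 45 per feature and 21 with 36 h limits of 1.2, where fewer genes can pass. No paired analysis was possible because the labels give no replicate numbers shared between comparisons. The number of arrays limits the precision.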

Other observations

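Of the 7603 features without a single gene in the annotation, 76 were also past both thresholds, with a mean of -0.4 or less at 12 h and at least 2-fold higher on both 36 h arrays. They are unnamed here.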
